A study of Saccharomyces cerevisiae with 8 samples.

Results

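YHL012W, YNR062C and YNR064C are 3 of the 776 open-reading-frame transcripts (ORF-Ts) listed under a single systematic name in the authors' tables, here called unnamed. Joint features were counted as named, also those that list systematic names only. The tables hold 5171 ORF-Ts among 7272 features. The 3 genes were selected on their measured reads in CAF-I mutants set against wild type, as the strongest differences among unnamed genes that are well enough read, so that comparison is given for them as a description with no test. The features within 2 kb of them, 10 in number, were picked by position alone and were tested.

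Nascent RNA was measured by NET-seq, native elongating transcript sequencing. RNA polymerase II is pulled down by an epitope on its Rpb3 subunit and the RNA it still holds is sequenced, so that reads report polymerase engaged on each strand. The 4 groups of 2 biological replicates each were the strains YSB3062 (cac1Δ), YSB3063 (cac2Δ), YSB3064 (cac3Δ) and the wild type YSC0001. All 4 strains carried Rpb3-FLAG and were grown in YPD to the mid-log phase. Each genotype was represented by a single strain name, and the wild type's name belongs to another naming series than the mutants' names, so strain background and the CAF-I mutation cannot be told apart.

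CAF-I is the histone chaperone that brings new histones H3 and H4 to DNA behind the replication fork, and CAC1 (also called RLF2), CAC2 and CAC3 (also called MSI1) encode its subunits. Loss of its subunits is known to weaken silent chromatin in budding yeast. Of the 3 genes, YHL012W encodes a relative of Ugp1, the enzyme that makes UDP-glucose, and its own function is not established. YNR064C encodes an epoxide hydrolase of the alpha/beta hydrolase fold. YNR062C is named PUL3 in RefSeq's R64 annotation, and the adjacent YNR063W is named PUL4. Genes of those names are known from Kluyveromyces lactis for the use of the iron chelate pulcherrimin, PUL3 as a membrane transporter and PUL4 as a regulator. The description of these genes as uncharacterised therefore holds for YHL012W better than for the other 2.

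Reads counted per library ran from 1959549 to 7117979 in the mutants and were 1880299 and 7705151 in wild type replicates 1 and 2. Each deleted gene was lower in its own mutant. RLF2 averaged 13.8 RPKM in cac1 and 38.2 RPKM in wild type, CAC2 averaged 19.9 RPKM in cac2 and 61.0 RPKM in wild type, and MSI1 averaged 32.2 RPKM in cac3 and 71.9 RPKM in wild type. RPKM here is the read count over the feature's length in kb and the library total in units of 1e+06 reads, after trimmed-mean (TMM) scaling of the totals. Wild type replicate 2 carried most of the control reads. Without it, 75 ORF-Ts rose and 61 fell in the mean of the 3 mutants, against 557 and 432 with all libraries. Without further scaling of the library totals 828 rose and 233 fell.

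YHL012W lies on the plus strand of chromosome VIII at 79690 to 80522, in the authors' coordinates (genome build not given in the sources used here). Its feature spans 832 bases. It starts 79690 bases from the start of the chromosome's coordinates, the nearer end, and lies 445 kb from the last feature end, the farther one. It had 58 and 133 reads in cac1 replicates 1 and 2, 79 and 128 reads in cac2, 142 and 146 reads in cac3, and 10 and 23 reads in wild type. Scaled for depth, these were 34.8 and 33.3 RPKM in cac1, 41.2 and 40.9 RPKM in cac2, 23.9 and 27.0 RPKM in cac3, and 6.53 and 3.72 RPKM in wild type. The mutant and wild-type libraries did not overlap, and the lowest mutant library was 3.67 times the highest wild-type library. The choice of the genes favours such separation, for the other 2 genes too. The share of all features that separate in this way was not counted. The replicates of each mutant lay close together, whereas wild type replicate 1 was 1.75 times replicate 2. The mean of the 3 mutants was 6.54 times the wild-type mean. The ratio of pooled reads was 7.27, with an exact 95% interval of 5.13 to 10.7 for counting error only. The log2 difference from the fit across all features was 2.91 (SE 0.20).

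YNR062C and YNR064C lie on the minus strand of chromosome XIV, at 744168 to 744976 and at 748904 to 750032, and span 808 and 1128 bases. Their 5′ ends are the higher coordinates, 36.3 kb and 31.2 kb from the last feature end on that chromosome. They are next to each other on this strand, with YNR063W between them on the other strand and partly opposite YNR064C.

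YNR062C had 23 and 37 reads in cac1, 27 and 28 reads in cac2, 53 and 42 reads in cac3, and 5 and 9 reads in wild type. These were 14.2 and 9.55 RPKM in cac1, 14.5 and 9.22 RPKM in cac2, 9.20 and 7.99 RPKM in cac3, and 3.36 and 1.50 RPKM in wild type. All mutant libraries stood above both wild-type libraries, the lowest at 2.38 times the highest wild-type level. The margin is thin in reads, since the counting interval of wild type replicate 1 (1.09 to 7.84 RPKM) runs into those of 4 of the 6 mutant libraries, both of cac3 and replicate 2 of cac1 and of cac2. The mean of the mutants was 4.44 times the wild-type mean, the pooled ratio was 5.25 (3.06 to 9.77), and the log2 difference was 2.42 (SE 0.38). Wild type replicate 1 was 2.24 times replicate 2.

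YNR064C had 19 and 77 reads in cac1, 41 and 63 reads in cac2, 62 and 42 reads in cac3, and 3 and 10 reads in wild type. Its levels were 8.41 and 14.2 RPKM in cac1, 15.8 and 14.9 RPKM in cac2, 7.71 and 5.72 RPKM in cac3, and 1.44 and 1.19 RPKM in wild type. The groups did not overlap here either, and the lowest mutant library was 3.96 times the highest wild-type library. The counting interval of wild type replicate 1, up to 4.22 RPKM on 3 reads, runs into that of cac3 replicate 2, from 4.12 RPKM. The mean of the mutants was 8.43 times the wild-type mean, the pooled ratio was 8.18 (4.71 to 15.5), and the log2 difference was 3.09 (SE 0.35). Its wild-type replicates lay nearer to each other than those of the other 2 genes, at a ratio of 1.21.

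**Figure D1:**
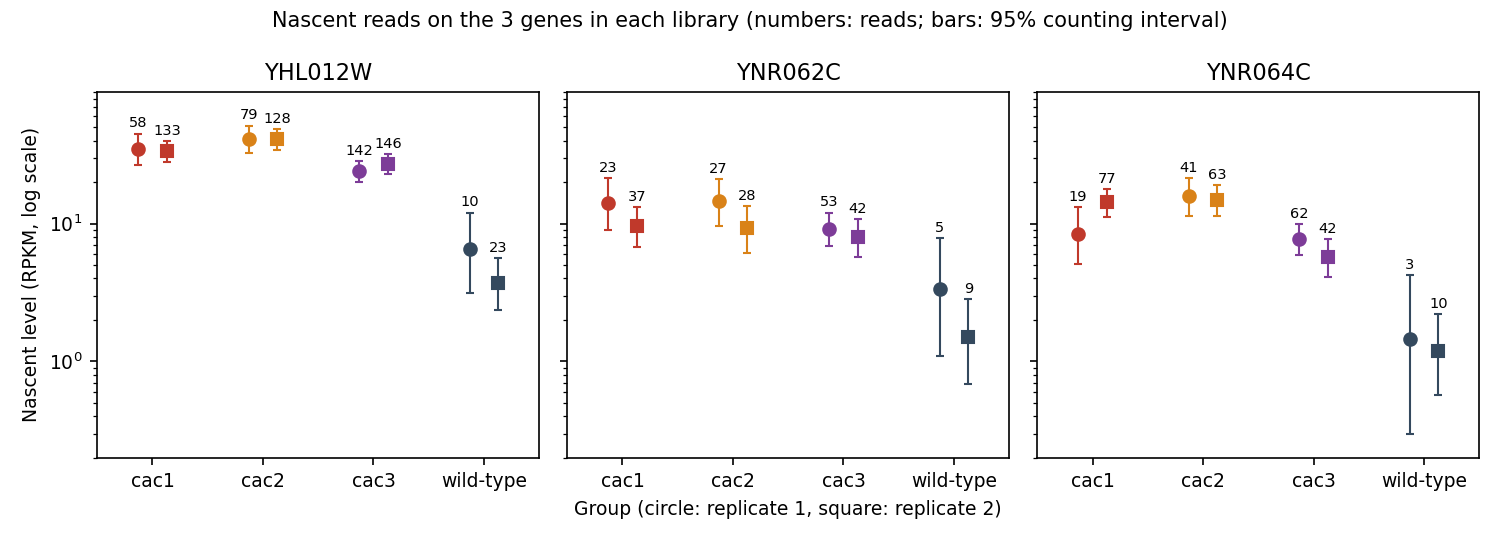
Nascent level in RPKM on a log axis for the 3 genes in each library, in cac1, cac2, cac3 and wild type, with circles for replicate 1 and squares for replicate 2. Bars are exact 95% Poisson intervals for counting error and the numbers are reads. In each panel all 6 mutant libraries lie above both wild-type libraries, and for YHL012W the wild-type libraries lie at 6.53 and 3.72 RPKM. The choice of the genes favours this separation.

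Leaving out wild type replicate 2 lowered the log2 difference of YHL012W to 2.32 and that of YNR062C to 1.60. YNR064C kept a log2 difference of 2.87 without that library. The size of the difference for the first 2 genes therefore rests in part on the deeper control library, in which both read lower. In a bulk culture, fewer cells transcribing a gene and less transcription per cell cannot be told apart.

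By size of the log2 difference in the mean of the mutants, YNR064C was 1st, YHL012W the 3rd and YNR062C the 8th of 5123 ORF-Ts with a mean of at least 5 RPKM over the 8 libraries. These places restate the selection. YNR062C and YNR064C reach 5 RPKM only through the mutants, since their wild-type means were 2.43 and 1.32 RPKM. Among ORF-Ts with a single systematic name, joint features left out, the next was YMR118C, a homologue of a succinate dehydrogenase subunit, at 2.09 (SE 0.44). It was followed by YDR034W-B at 1.91 (SE 0.38) and YGL081W at 1.78 (SE 0.19). In wild type these 3 had 8, 22 and 60 reads in all, and YHL012W, YNR062C and YNR064C had 33, 14 and 13.

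Differences of this direction were more frequent among less transcribed ORF-Ts, as counts by level. YNR062C and YNR064C averaged 8.69 and 8.67 RPKM over the 8 libraries, and YHL012W averaged 26.4 RPKM. The level classes use these means, which include the mutants. In wild type YHL012W averaged 5.12 RPKM, so by wild-type level it too would lie under 10 RPKM. Of the 147 other ORF-Ts under 10 RPKM, 52.4% rose in the mean of the mutants and 1.36% fell (edgeR, adjusted p under 0.05), with a median log2 difference of 0.90. Among them 19 had a log2 difference above 2. Of the 694 other ORF-Ts between 10 and 30 RPKM, 25.4% rose, the median was 0.15, and 4 had a log2 difference above 2. Of the 1403 ORF-Ts at 100 RPKM and over, 4.28% rose and 19.5% fell, and none had a log2 difference above 2.

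Unnamed and named ORF-Ts were set side by side by level, as counts with no test of the difference. The named class holds joint features that list systematic names only. Of the 773 other unnamed ORF-Ts, 114 rose (14.7%) and 33 fell (4.27%), with a median log2 difference of 0.05. Over all 5171 ORF-Ts, 10.8% rose and 8.35% fell, with a median of 0.002. In the range under 10 RPKM, 14 of 30 unnamed and 63 of 117 named ORF-Ts rose, and the median log2 differences were 0.75 and 0.91. Between 10 and 30 RPKM 27.2% of unnamed and 24.8% of named ORF-Ts rose, and between 30 and 100 RPKM 11.3% and 7.65% did. Without wild type replicate 2, 13 unnamed ORF-Ts rose and 0 fell, and without wild type replicate 1, 68 rose and 10 fell. DESeq2 called 55 higher and 4 lower with all libraries, and edgeR without further scaling called 160 higher and 17 lower.

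**Figure D2:**
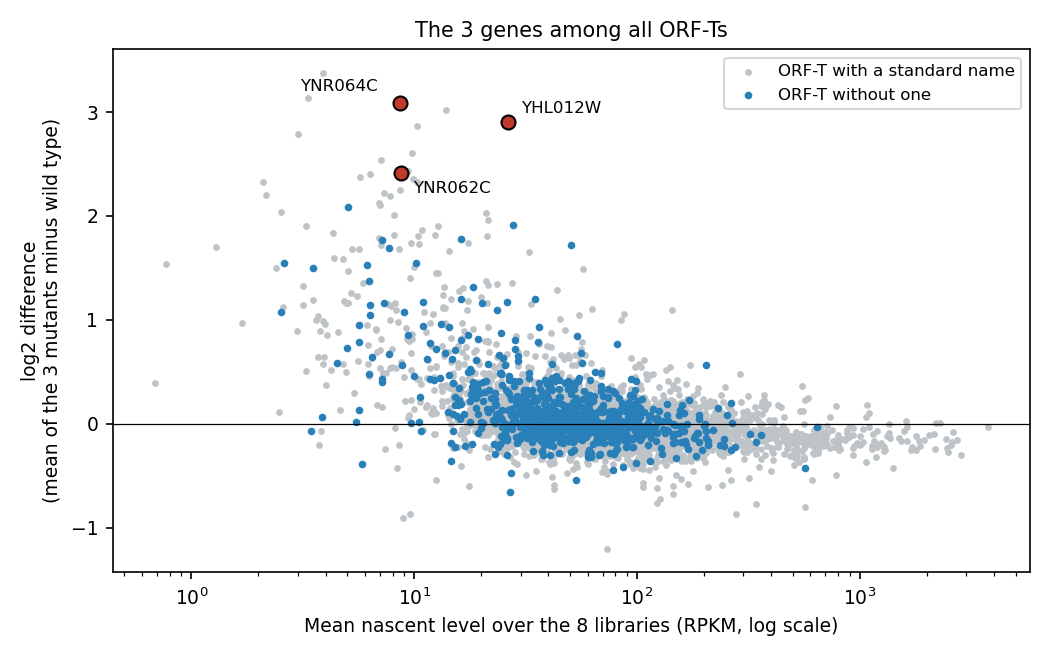
Each point is an ORF-T, with its mean level over the 8 libraries in RPKM (log axis) against its log2 difference, mean of the 3 mutants minus wild type. YNR064C, YHL012W and YNR062C, in red, lie at 3.09, 2.91 and 2.42 among unnamed ORF-Ts in blue and named ones in grey, and positive differences are largest at low levels.

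Each mutant was set against the same 2 wild-type libraries. In cac2 the log2 differences from wild type were 3.23 for YHL012W, 2.56 for YNR062C and 3.59 for YNR064C. In cac1 they were 2.95, 2.53 and 3.26 in the same order, and in cac3 they were 2.54, 2.16 and 2.41. Of the 3 mutants cac3 had the lowest fitted value for each gene. For YNR062C the means of cac1 and cac2 were both 11.9 RPKM, so no order is read between them.

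Whether the mutants differ from each other could be tested, since that comparison did not choose the genes. For all 3 genes every cac1 and cac2 library lay above both cac3 libraries. For YNR062C the margin was nil in practice, with cac2 replicate 2 at 9.22 RPKM and cac3 replicate 1 at 9.20 RPKM. The share of all features with such an order was not counted. The log2 difference of cac2 minus cac3 was 1.17 (SE 0.26) for YNR064C and 0.69 (SE 0.16) for YHL012W, with adjusted p = 0.109 and 0.123 by edgeR's quasi-likelihood test. For YNR062C it was 0.40 (SE 0.31, adjusted p = 0.686). The log2 difference of cac1 minus cac3 was 0.85 (SE 0.26) for YNR064C, 0.41 (SE 0.16) for YHL012W and 0.37 (SE 0.31) for YNR062C, with adjusted p = 0.153, 0.246 and 0.614. Between cac1 and cac2 the log2 differences were -0.33 (SE 0.26) for YNR064C, -0.28 (SE 0.17) for YHL012W and -0.03 (SE 0.34) for YNR062C.

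None of the 3 genes passed the threshold by edgeR in any of these 3 comparisons. Of all 7271 features tested, 1.36% passed between cac1 and cac3, 0.605% between cac2 and cac3, and 0.055% between cac1 and cac2. At an unadjusted p under 0.05, edgeR gave 2 of the 3 genes for cac1 against cac3, 2 for cac2 against cac3 and 0 for cac1 against cac2. DESeq2 gave 0 adjusted calls between cac1 and cac2. It left 2 of the 3 genes without an adjusted p between cac1 and cac3 and all 3 between cac2 and cac3, so its adjusted counts are not given there. At an unadjusted p under 0.05 it gave 1 gene for cac1 against cac3, 2 for cac2 against cac3 and 0 for cac1 against cac2.

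The labels do not say that a replicate number marks a shared day or batch across groups. A fit that took the number as a replicate block narrowed the spread. In that fit cac2 exceeded cac3 by a log2 difference of 1.17 for YNR064C (adjusted p = 0.00228) and 0.69 for YHL012W (adjusted p = 0.005), where 2.74% of all features were called. In the same fit cac1 exceeded cac3 by 0.88 for YNR064C (adjusted p = 0.0183), where 8.6% of all features were called. These calls depend on the block.

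All 3 genes are overlapped on the other strand. SUT575, a stable unannotated transcript (SUT), runs antisense to 748 of the 832 bases of YHL012W. SUT344 covers the whole of YNR062C, and YNR063W overlaps 804 bases of YNR064C. The sources used here do not say how counting used strand. Over the whole tables, 672 features lie wholly inside a feature on the other strand, and 136 of them had more reads than the feature around them, which counting of both strands together would not give.

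The order of YHL012W and SUT575 differed between the groups. The ratio of YHL012W to SUT575, in RPKM, was 1.45 and 1.14 in the cac1 libraries, 1.46 and 1.77 in those of cac2, and 0.905 and 1.08 in those of cac3, against 0.414 and 0.188 in wild type. The sense gene stood above its antisense transcript in 5 of 6 mutant libraries and below it in both wild-type libraries. YNR062C stayed below SUT344 in every library, at ratios of 0.483 and 0.348 in cac1, 0.438 and 0.313 in cac2, 0.318 and 0.278 in cac3, and 0.153 and 0.0604 in wild type. YNR064C approached the level of YNR063W in cac2, with ratios of 0.997 and 0.928. Its ratios were 0.566 and 0.905 in cac1 and 0.434 and 0.350 in cac3, against 0.0647 and 0.0713 in wild type.

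**Figure D3:**
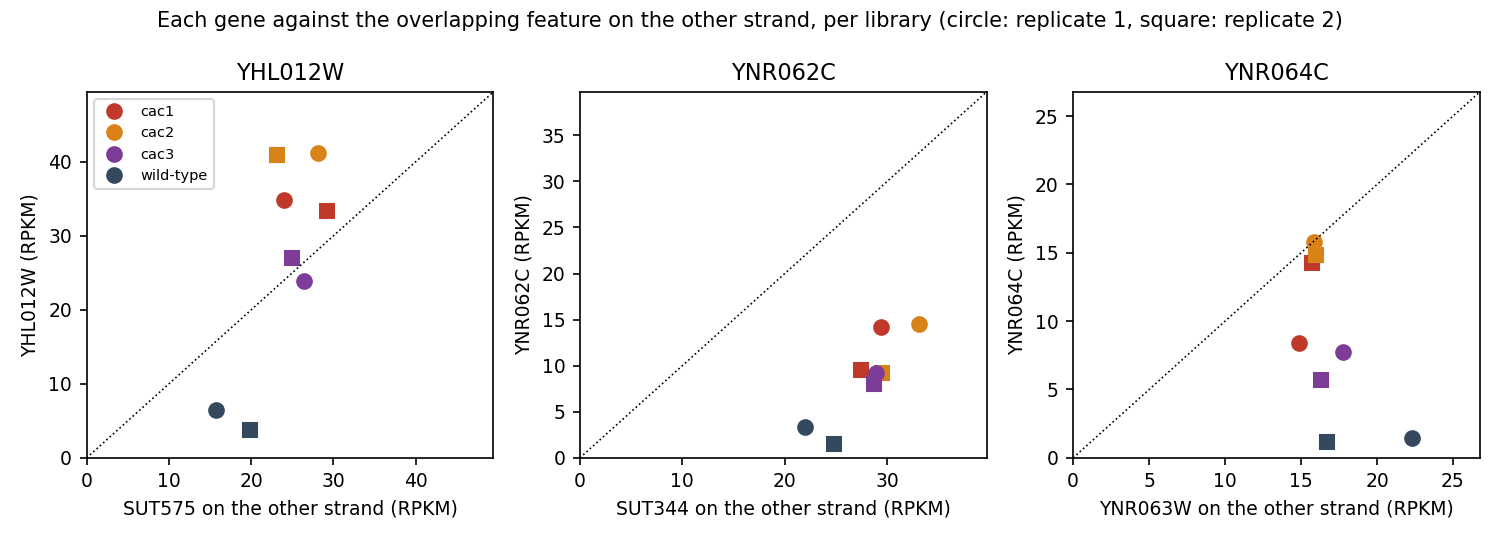
Level of each gene (vertical axis, RPKM) against that of the overlapping feature on the other strand (horizontal axis, RPKM) in each library, with circles for replicate 1 and squares for replicate 2, and a dotted line of equal levels. For YHL012W 5 of 6 mutant libraries lie above the line, with ratios of up to 1.77, and the wild-type libraries lie well below it. Reads on the vertical axis are those that chose the genes.

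Within 2 kb of the 3 genes, the 10 neighbouring features had small differences. SUT575 rose by a log2 difference of 0.48 (SE 0.13, adjusted p = 0.0231) and SUT344 rose by 0.30 (SE 0.07, adjusted p = 0.0191) in the mean of the mutants. So 2 of 10 neighbours rose by edgeR and none fell, where 11.9% of all features rose and 8.86% fell. Without further scaling the 2 neighbours called were joined by SUT757 at 0.39 (adjusted p = 0.0322), and over all features 1219 rose and 388 fell, against 865 and 644 with scaling. For the lower direction 0 neighbours had an unadjusted p under 0.05, by edgeR or by DESeq2. DESeq2 called 0 neighbours higher after adjustment and 3 at an unadjusted p under 0.05. Without wild type replicate 1 or without wild type replicate 2, 0 neighbours were called higher, and without cac3 replicate 1 the count was 1.

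SUT575 had 23.9 and 29.2 RPKM in cac1, 28.1 and 23.2 RPKM in cac2, 26.4 and 24.9 RPKM in cac3, and 15.8 and 19.8 RPKM in wild type. All its mutant libraries stood above both wild-type libraries. SUT344 had 29.4 and 27.5 RPKM in cac1, 33.1 and 29.5 RPKM in cac2, 28.9 and 28.7 RPKM in cac3, and 22.0 and 24.8 RPKM in wild type, again with no overlap. The share of all features whose libraries separate in this way was not counted, so the separation of these SUTs is a description only. Both SUTs lie opposite a gene that stood far higher in the mutants, and their own differences were smaller than those of the genes they cover.

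The protein-coding neighbours did not pass the test. OTU2, whose product is an OTU-domain protein, lies 1308 bases upstream of YHL012W on the other strand and had a log2 difference of -0.01 (SE 0.10). PRS3, which encodes a subunit of phosphoribosyl-pyrophosphate synthetase, overlaps the 3′ end of YHL012W by 36 bases. It averaged 218 RPKM in cac1, 219 RPKM in cac2 and 227 RPKM in cac3, against 225 RPKM in wild type, a log2 difference of -0.03 (SE 0.05). YHL010C, named ETP1 in RefSeq, lies beyond it at 0.11 (SE 0.11).

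On chromosome XIV, YNR061C starts on the same strand 536 bases downstream of YNR062C and had a log2 difference of 0.06 (SE 0.07). It averaged 117 RPKM in cac1, 129 RPKM in cac2 and 127 RPKM in cac3, against 118 RPKM in wild type. YNR063W, which lies between YNR062C and YNR064C and is RefSeq's PUL4, had a log2 difference of -0.21 (SE 0.11, adjusted p = 0.206). It averaged 15.3 RPKM in cac1, 15.9 RPKM in cac2 and 17.0 RPKM in cac3, against 19.5 ± 3.94 RPKM in wild type (SD, n = 2). The joint feature of YNR065C and YNR066C, which ends 328 bases upstream of YNR064C on the same strand, was at -0.07 (SE 0.08). YNR065C encodes a protein related to the sorting receptor sortilin. The 2 genes that stood several-fold higher in the mutants on this chromosome are thus flanked and separated by coding features with log2 differences of at most 0.21 in size.

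The other 2 neighbours are SUTs downstream of YNR062C. SUT343 was at -0.36 (SE 0.25), on few reads. SUT757 was at 0.33 (SE 0.11, adjusted p = 0.0649), and with the replicate block at 0.27 (adjusted p = 0.0275), where 16.7% of all features were called higher. It averaged 34.4 RPKM in cac1, 37.2 RPKM in cac2 and 28.2 RPKM in cac3, against 25.0 RPKM in wild type, and wild type replicate 2, at 28.4 RPKM, lay above cac3 replicate 2, at 27.4 RPKM.

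**Figure D4:**
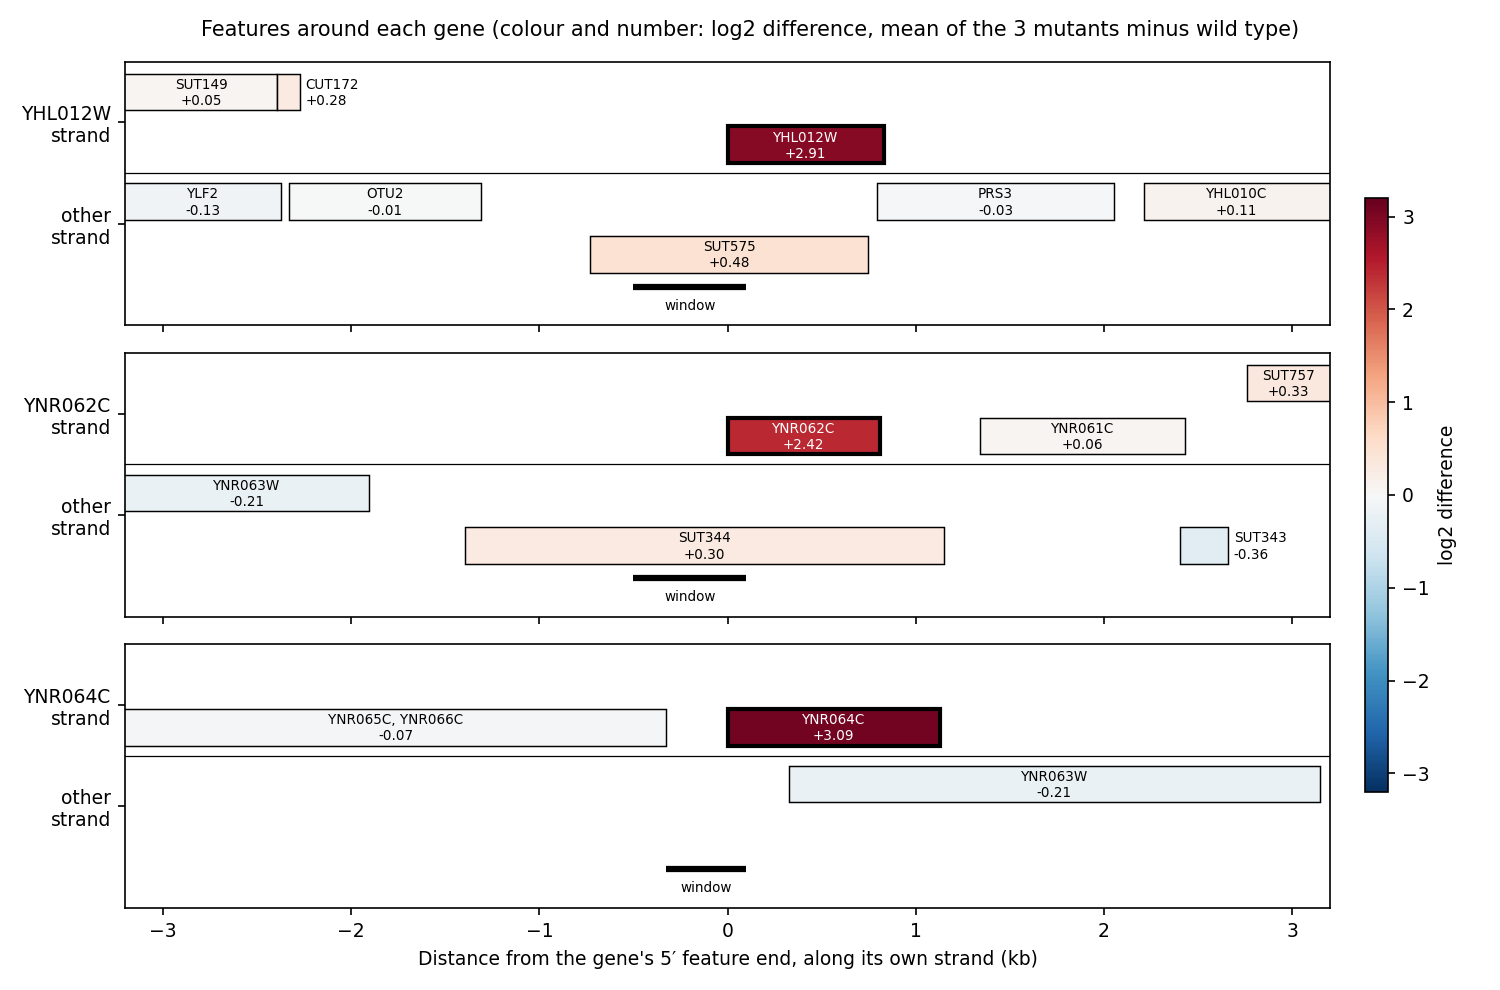
Features around each gene by distance in kb from its 5′ feature end along its own strand (upper row: its strand, lower row: the other strand), with coding features nearest the middle line, CUTs and SUTs farthest from it, and the antisense window as a black bar. Colour and number give the log2 difference, mean of the 3 mutants minus wild type: the 3 genes stand at 2.91, 2.42 and 3.09, and coding neighbours within 2 kb lie between -0.21 and 0.11.

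The authors also counted reads in a window at each feature's 5′ end on the opposite strand, 500 bases upstream to 100 bases downstream, shortened where another feature begins. Those reads were not used to choose the genes. For YHL012W the window had 22 and 51 reads in cac1, 29 and 46 reads in cac2, 88 and 72 reads in cac3, and 9 and 40 reads in wild type. Per kilobase these were 18.0 ± 0.41 RPKM in cac1, 20.7 ± 0.40 RPKM in cac2, 19.5 ± 1.50 RPKM in cac3, and 8.56 ± 0.59 RPKM in wild type (SD, n = 2 each). Reads in this window rose in the mean of the mutants by a log2 difference of 1.14 (SE 0.20, adjusted p = 0.00179, edgeR), and by 1.03 in cac1, 1.23 in cac2 and 1.15 in cac3. The call was lost without wild type replicate 2, where the log2 difference was 1.24 (adjusted p = 0.107).

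The windows of the other 2 genes did not pass. The window of YNR062C averaged 24.9 RPKM in cac1, 26.3 RPKM in cac2 and 23.2 RPKM in cac3, against 22.9 RPKM in wild type, a log2 difference of 0.11 (SE 0.18, adjusted p = 0.709). The window of YNR064C, 428 bases wide, averaged 10.3 RPKM in cac1, 9.73 RPKM in cac2 and 7.16 RPKM in cac3, against 10.6 RPKM in wild type, a log2 difference of -0.14 (SE 0.31, adjusted p = 0.808). So 1 of 3 windows rose and none fell, where 18.1% of 5494 windows rose and 4.39% fell. For the lower direction 0 of the 3 had an unadjusted p under 0.05, by edgeR or by DESeq2.

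The window of YHL012W lies wholly inside SUT575, so their reads are shared. Split at the window's edges, SUT575 averaged 18.0 RPKM in cac1, 20.7 RPKM in cac2 and 19.5 RPKM in cac3 inside the window, against 8.56 RPKM in wild type, 2.27-fold. Outside it, over the body and 3′ part of YHL012W and at the far end, SUT575 averaged 32.4 RPKM in cac1, 29.1 RPKM in cac2 and 29.9 RPKM in cac3, against 24.1 RPKM in wild type, 1.26-fold. The gain on SUT575 was thus greater beside the 5′ end of YHL012W than elsewhere, as values with no test. For SUT344 the fold was 1.09 inside the window of YNR062C and 1.31 outside it.

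Windows of the neighbours add reads from the strand opposite each of them. The window of YNR061C, which begins where that gene starts and runs towards the 3′ end of YNR062C, rose by 0.42 (SE 0.14, adjusted p = 0.0473), with 39 and 109 reads in cac1, 65 and 100 in cac2, 154 and 164 in cac3, and 30 and 139 in wild type. Of its 600 bases 304 lie in SUT344, so they share reads. DESeq2 did not call it (adjusted p = 0.283), and leaving out 7 of the 8 libraries in turn ended the call. The window of YHL010C was at 0.80 (SE 0.28, adjusted p = 0.0506), and with the replicate block at 0.80 (adjusted p = 0.0381), where 24.9% of all windows were called higher. The window of OTU2, which lies upstream of YHL012W on the strand of YHL012W, was at 1.44 (SE 0.68, adjusted p = 0.139) on 3 to 22 reads per library. Without wild type replicate 2 it was at 0.03. The windows of PRS3, YNR063W and the joint feature of YNR065C and YNR066C were at -0.35, 0.26 and 0.18 and did not pass.

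**Figure D5:**
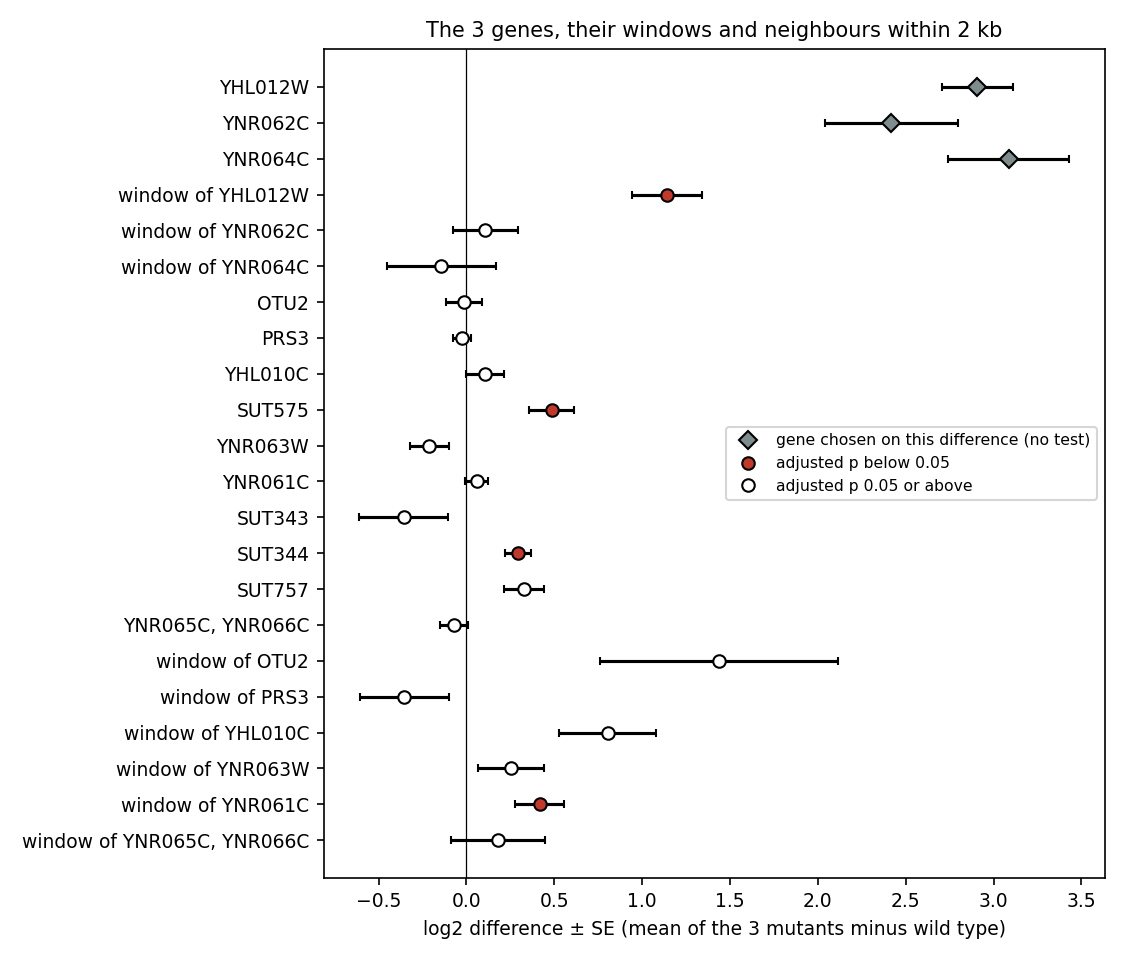
Log2 difference, mean of the 3 mutants minus wild type, with its SE, for the 3 genes (grey diamonds, not tested), their windows, the 10 features within 2 kb and the windows of those in the ORF-T table. Red points passed the threshold and white points did not: SUT575 at 0.48, SUT344 at 0.30, the window of YHL012W at 1.14 and the window of YNR061C at 0.42 are red.

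Over a wider span, the surroundings stayed near the level of all ORF-Ts. Of 16 ORF-Ts within 20 kb of YHL012W, 1 rose and 1 fell, where 10.8% of all ORF-Ts rose and 8.35% fell. FMP12 rose by 0.28 and OPI1, a repressor of phospholipid synthesis genes, fell by 0.25 on the log2 scale. The median was -0.04. None of the 16 was called higher when any single library was left out, or by DESeq2, and none was called lower without either wild-type library or either cac3 library. Of the 9 ORF-Ts within 20 kb of YNR062C and the 9 within 20 kb of YNR064C, only BIO3, an enzyme of biotin synthesis, rose, at 0.79, and none fell. These 2 lists share most of their members, BIO3 included, so they are not separate surroundings. The call of BIO3 was lost without wild type replicate 2. The lower direction held 1 at an unadjusted p under 0.05 by edgeR and 0 by DESeq2 around each. The medians were -0.07 and 0.03.

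The pathway of YHL012W's relative was examined through 21 genes of UDP-glucose and glucan metabolism. UGP1 itself averaged 137 RPKM in the mutants and 142 RPKM in wild type, a log2 difference of -0.06 (SE 0.06, adjusted p = 0.537, edgeR). Of the 21 genes 8 rose (38.1%) and 0 fell, with a median log2 difference of 0.22, beside 10.8% and 0.002 over all ORF-Ts. By level, 52.4% of other ORF-Ts under 10 RPKM rose and 25.4% of those between 10 and 30 RPKM. GSY1, GAL7 with GAL10 and GPH1 were below 30 RPKM, so the share for the list is not set apart from level. The largest were GSY1, a glycogen synthase, at 1.12 (15.7 RPKM in the mutants and 6.82 RPKM in wild type), GAL7 with GAL10, of galactose use, at 0.95, GPH1, glycogen phosphorylase, at 0.71, and GLG2, which primes glycogen synthesis, at 0.46. In the lower direction 1 gene had an unadjusted p under 0.05 by edgeR and 1 by DESeq2. DESeq2 called 3 higher, and without wild type replicate 1 the count was 5, and without wild type replicate 2 it was 1. Of 11 alpha/beta hydrolase fold genes, the class of YNR064C, 1 rose and 1 fell, where 10.8% of all ORF-Ts rose and 8.35% fell. ECM18 rose by 0.43 and EHT1, an ester-forming enzyme, fell by 0.38 on the log2 scale, with a list median of 0.10. Neither was called when either wild-type library was left out.

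Likeness to each gene was measured as the root-mean-square difference of log2 (RPKM + 1) over the 8 libraries, each profile centred on its own mean. The profile most like that of YHL012W was STE3, which encodes the receptor for a-factor, at 0.13, where the median over 5442 features was 1.13. STE3 averaged 17.7 RPKM in the mutants and 2.44 RPKM in wild type. Next were the feature of YBR116C and TKL2, a transketolase, at 0.32, YNR064C at 0.32, the feature of BNA2, of NAD synthesis, with YJR079W at 0.33, and NQM1, a transaldolase relative, at 0.35. YNR064C was most like YHL012W at 0.32, SIP4, an activator of gluconeogenic genes, at 0.32, STE3 at 0.33, TKL2's feature at 0.36 and CAT2, carnitine acetyltransferase, at 0.37.

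The difference between YNR062C and YNR064C was 0.50, which put YNR064C in place 99 for YNR062C and YNR062C in place 28 for YNR064C, each of 5443. YNR062C was most like YDR034W-B at 0.16, JEN1, the lactate and pyruvate permease, at 0.20, PRM2, a pheromone-regulated membrane protein, at 0.20, PES4 at 0.20 and the feature of YFR012W with YFR012W-A at 0.22. The likeness comes from the same values that chose the 3 genes, so likeness among them follows from the choice. The choice also favours closeness to other features that rose strongly, STE3 among them, and distance from the median feature. All points share library depth.

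Markers of both yeast mating types were read beside these genes. Of 5 alpha-cell markers 3 rose, STE3 by 3.02, MF(ALPHA)2 by 2.35 and YLR040C by 0.42, where 10.8% of all ORF-Ts rose, and 52.4% of those under 10 RPKM and 25.4% of those between 10 and 30 RPKM. MF(ALPHA)1 was at 2.21 (adjusted p = 0.11) and SAG1 at -0.01 (adjusted p = 0.991). The summed level of the 5 was 73.5 to 112 RPKM in the mutants, against 70.8 and 50.1 RPKM in wild type. Of the 5, MF(ALPHA)1, an alpha-factor gene, was at 0 reads in wild type replicate 2, and none was at 0 in a mutant library. Without wild type replicate 2 the count of markers that rose was 1, without cac3 replicate 1 it was 2, and DESeq2 called 1. Of 6 a-cell markers STE2 fell by 0.26 on the log2 scale and the other 5 did not pass, with a list median of -0.06. STE2 averaged 504 RPKM in the mutants and 604 RPKM in wild type. Of all ORF-Ts 8.35% fell, and of those at 100 RPKM and over 19.5% fell. The summed level of the 6 a-cell markers was 2246 to 2618 RPKM in the mutants, against 2611 and 2754 RPKM in wild type. The part of mating-type identity in the levels of the 3 genes was not tested.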

How the data were processed

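NET-seq reads were deposited by the authors as whole-number counts per feature (per the file headers, the feature's span), in a table of ORF-Ts and a table of noncoding features for each library. A second, estimated count covers a window at the 5′ end of each feature and was deposited by the authors with empty windows as 0.5, entered here as 0. The RPKM of each window was deposited by the authors too and served only to derive window widths. The window's strand and extent were inferred: 5438 of 5498 deposited widths matched the rule within 1 base. The nascent RNA protocol is a published one, per the labels; no source used here names the aligner, genome build or read filters, or says whether reads of near-identical copies were shared.

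The 3 genes, the lists and the tests were chosen with earlier results of these data known, and the level classes after seeing the data. Named genes were the 3 genes, every feature within 2 kb, the next 3 unnamed ORF-Ts by log2 difference and the 5 features with the closest profile to each gene. Of each list, the 4 that moved most in each direction among those past the threshold were named. ORF-Ts 2 to 5 kb from YHL012W were named for their windows. A feature was tested if 2 or more libraries reached 1 RPKM, which left 7271 features and, in a separate fit, 5494 windows. All 8 libraries entered a single edgeR 4.0.16 quasi-likelihood fit (R 4.3.3) with a coefficient per group, TMM factors of 0.964 to 1.02 over ORF-Ts, and Benjamini-Hochberg adjustment over all features at a threshold of 0.05. The fit weights libraries by depth, so its log2 difference is not the log of the ratio of group means. The SE was derived as the size of the log2 difference over the square root of the test's F statistic. It is therefore approximate and need not match the p-value exactly. The biological coefficient of variation was 8.13% for features and 13.3% for windows, on 4 residual degrees of freedom. The labels call the replicates biological. Same-numbered libraries deviated together in all 6 pairs of groups, with correlations of 0.22 to 0.37, so the number was also used as a replicate block. Alternatives were other scaling, no filter, DESeq2 1.42.0, the replicate block, other distances and leaving out each library. Poisson intervals are exact at 95% and cover counting error only. The fit was tested on simulated data. Names were taken from RefSeq's R64 table, which was used for no coordinate, and no sequence is printed. Tables were made in Python 3.11.15 (scipy 1.17.1, pandas 2.3.3, numpy 2.4.6).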

Additional observations from a re-analysis of the deposited data

How the results depend on the processing

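With few reads in wild type (33, 14 and 13 for YHL012W, YNR062C and YNR064C), control depth limits the differences from wild type. Of the results that answer a comparison, 111 alternative values kept their side and 9 moved. These include the log2 differences of the 3 genes from wild type, which chose the genes, so the tally does not measure how steady the results are. With the replicate block, 1 gene differed between cac1 and cac3 and 2 between cac2 and cac3, against 0 in the fit without it. Leaving out each library in turn gave 0 to 1 windows of the 3 genes higher and 0 to 2 neighbours higher, and DESeq2 gave 0 neighbours higher. The block gave 3 neighbours higher, with SUT757. Leaving out libraries gave log2 differences of 2.32 to 3.13 for YHL012W, 1.60 to 2.76 for YNR062C and 2.87 to 3.16 for YNR064C. Values that changed sign were near 0 and not called: OTU2 was 0.0443 without further scaling, 0.0167 with the replicate block and -0.10 to 0.0477 with a library left out, PRS3 was 0.0304 without further scaling and -0.0663 to 0.0193 with a library left out, and YNR062C in cac1 minus cac2 was 0.00335 with the block and -0.38 to 0.32 with a library left out. With a library left out, YNR061C was -0.000502 to 0.15, and the windows of YNR064C, YNR063W and the joint feature of YNR065C and YNR066C were -0.54 to 0.0365, -0.13 to 0.48 and -0.0366 to 1.04. The cause was not tested. DESeq2 gave no full set of adjusted p for the 3 genes between cac1 and cac3 or between cac2 and cac3, so those counts have no DESeq2 value. Neighbours within 1 kb or 5 kb gave 2 higher and 0 lower, as at 2 kb.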

Other observations

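The window at the 5′ end of SUT575 lies on the strand of YHL012W and covers the last 184 bases of YHL012W and the sequence beyond its 3′ end. It had 17 and 49 reads in cac1, 21 and 43 reads in cac2, 57 and 48 reads in cac3, and 7 and 7 reads in wild type, which is 15.6, 17.1 and 12.8 RPKM in the cac1, cac2 and cac3 means and 3.95 RPKM in wild type. Since it shares reads with YHL012W, it was not tested.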
